A study of Mus musculus with 9 samples.

Results

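Olfactory and vomeronasal receptor genes were taken as all probes whose platform annotation gave a single gene symbol starting with Olfr and a digit, V1r, V2r, Vmn1r or Vmn2r. The rule used names only and no measured value. It gave 184 probes of 178 genes, out of 23040 probes on the array, of which 16874 carried a single symbol (15096 genes). A further 5 probes matched the rule but carried several symbols and were left out. The 184 probes held 16 for class I olfactory receptors, 120 for class II olfactory receptors, 3 for olfactory receptors of unknown class, 29 for V1R and 16 for V2R vomeronasal receptors. The classes follow the MOR family names among the synonyms in RefSeq, which held 176 of the 178 genes and lists 5 of them as pseudogenes.

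Olfactory receptors are G protein-coupled receptors of the sensory neurons of the nasal epithelium, where each mature neuron expresses a single allele of a single receptor gene and signals through the olfactory G protein subunit, adenylyl cyclase and a cyclic nucleotide-gated channel. Class I receptors form the older, fish-like class, which in the mouse lies in a large cluster around the beta-globin genes, and class II receptors are spread over many clusters. V1R and V2R receptors are pheromone receptors of the vomeronasal organ, coupled to different G protein subunits and to the channel Trpc2. Most of these genes are not known to be expressed outside the nose, with exceptions such as Olfr78, found in the carotid body and in renal vessels.

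RNA of male SJL/J mice was compared with RNA of male C57BL/6J mice, both aged 8 weeks, in whole brain, kidney and liver. Each strain was represented by a pool of 5 mice per tissue, and 20 ug of pooled RNA was labelled for each array, SJL/J with the far-red and C57BL/6J with the orange Alexa Fluor dye. Each tissue was hybridised on 3 arrays that were technical replicates of the same pools, with no exchange of dyes, so p-values measure the spread between arrays and not between mice. For the kidney and liver arrays, the channel of SJL/J is labelled as brain in the tissue field, against their titles, which were followed. No receptor tissue (nasal epithelium or vomeronasal organ) was among the samples.

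The deposited values were log ratios, 1 per probe and array, taken here as log2 and likely as SJL/J over C57BL/6J. A value of 1 is thus a 2-fold higher signal in SJL/J, and a negative value a lower one. The base and the direction are not stated in the labels. Nnt, a mitochondrial transhydrogenase gene of which C57BL/6J lacks a part, had ratios from 0.15 to 1.06 over the 9 arrays. The authors had given every array the same distribution of values, from -3.91 to 5.09 with a median of 0.01. The files held ratios and no signal levels. Whether a receptor was expressed at all, and whether the labelled tissues held their defining markers, could therefore not be measured, and the number of arrays limits the precision. In pooled bulk tissue, fewer cells of a type and less RNA per cell cannot be told apart. Receptor genes have close copies and the probe sequences were not used here, so which copies a probe binds was not tested.

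The receptor probes lay below 0 more often than above it, in all 3 tissues. Their median log2 ratio was -0.09 in brain, -0.16 in kidney and -0.08 in liver, against 0.01, 0.02 and 0.01 over all probes. On single arrays the median of the receptor probes ran from -0.18 to -0.07, and the share below 0 ran from 54.3% to 70.1%, against 48.3% of all probes on every array. The bulk of the receptor ratios was small. An absolute log2 ratio above 1 was reached in brain by 8 receptor probes (4.35%), in kidney by 4 (2.17%) and in liver by 5 (2.72%), against 4.59%, 4.83% and 5.53% of all probes. The SD over receptor probes was 0.47 in brain, 0.41 in kidney and 0.30 in liver, where all probes gave 0.46, 0.50 and 0.49.

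Each probe was tested per tissue with limma, with p-values adjusted over all 23040 probes and a threshold of 0.05. In brain, 10 receptor probes were higher in SJL/J and 41 were lower, which is 5.43% and 22.3% of the receptor probes, against 10.4% and 9.87% of all probes. In kidney, 15 were higher and 56 lower (8.15% and 30.4%), against 14.5% and 14.5% of all probes. In liver, 3 were higher and 25 lower (1.63% and 13.6%), against 12.8% and 12.4%. In any direction the receptors passed in 27.7%, 38.6% and 15.2% in brain, kidney and liver, and all probes in 20.2%, 29.0% and 25.2%. The excess of lower over higher calls was thus present in all 3 tissues, while the total share was below the background in liver alone. The counts depended on single arrays. The brain count of 51 was 32 without brain replicate 2, the kidney count of 71 was 44 without kidney replicate 1 and 44 without kidney replicate 3, and the liver count of 28 was 15 without liver replicate 2 and 16 without liver replicate 3. With each tissue fitted on its own arrays alone, 14 passed in brain, 5 higher and 9 lower.

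Of the 184 probes, 83 passed in no tissue, 66 in 1, 21 in 2 and 14 in 3. Among the 14, 12 were lower in SJL/J in every tissue and 0 were higher in every tissue, and the other 2 changed sign. The 12 are 6.52% of the receptor probes. Of all probes, 2.48% were lower and 2.38% higher in every tissue (4.86% in all). Of the 16874 probes with a single symbol, as the receptor probes have, 413 were lower and 110 higher in every tissue. Without regard to the test, 36 of the 184 receptor probes lay below 0 on all 9 arrays and 0 lay above 0 on all 9. Of all probes, 7.28% lay below and 7.89% above on all 9. The 36 held 10 of the 25 receptor probes whose number is a multiple of 8, a class described further on.

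**Figure D1:**
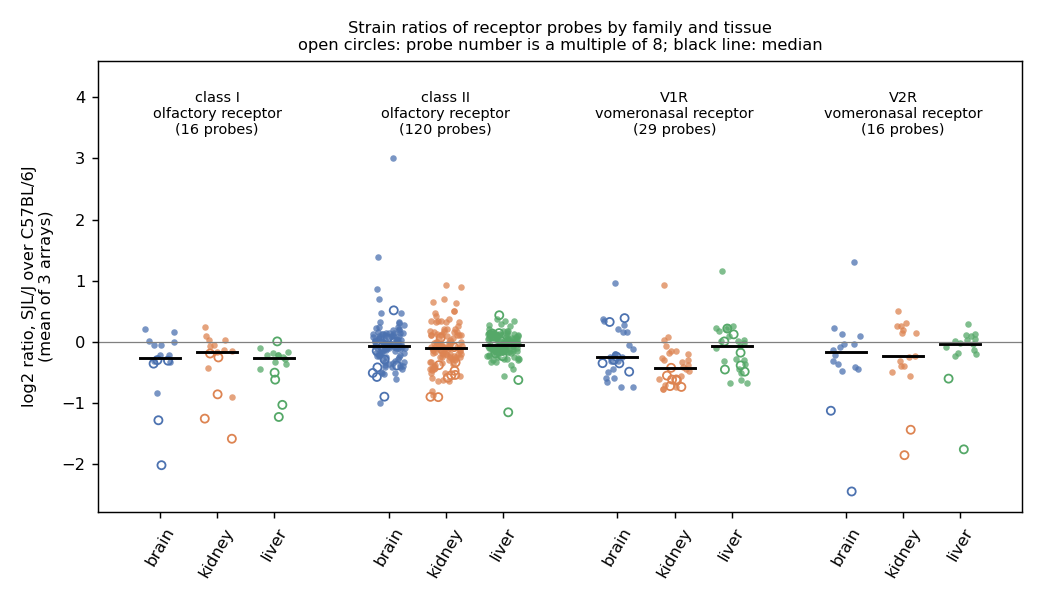
Mean log2 ratio of each receptor probe (SJL/J over C57BL/6J, vertical axis, 3 arrays per tissue) by receptor family and tissue, with open circles for probes whose number is a multiple of 8 and a black line at the family median. All 12 medians lie below 0, the V1R median in kidney is the lowest at -0.43, and 1 class II probe, Olfr76, stands alone at 3.01 in brain.

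Among class I olfactory receptors, no probe was higher in SJL/J in any tissue. Of 16 probes, 6 were lower in brain, 5 in kidney and 7 in liver, with median log2 ratios of -0.27, -0.17 and -0.28. Over all probes, in the order brain, kidney, liver, 10.4%, 14.5% and 12.8% were higher and 9.87%, 14.5% and 12.4% lower. Olfr64, Olfr653, Olfr67 and Olfr68 were lower in all 3 tissues. Olfr64 had ratios of -2.0, -2.05 and -2.03 on the brain arrays, -1.50, -1.46 and -1.82 on the kidney arrays and -1.0, -0.54 and -2.17 on the liver arrays. All 9 values were negative, and the brain values were the closest together. The means by tissue were -2.03 ± 0.03, -1.59 ± 0.20 and -1.24 ± 0.84 (SD, n = 3 arrays each), with adjusted p of 0.000301, 0.000796 and 0.00382. Olfr653 gave means of -1.29 ± 0.51, -1.26 ± 0.13 and -1.04 ± 0.41 (SD, n = 3) in brain, kidney and liver, again with 9 of 9 arrays below 0. Olfr68 read -1.16, -0.61 and -0.77 in brain, -0.80, -1.05 and -0.85 in kidney and -0.50, -0.44 and -0.41 in liver. Its liver values did not overlap with those of the other tissues, but no difference between tissues passed for Olfr68 (adjusted p = 0.0972 for tissue dependence). In liver its call was lost when any 1 of the liver arrays was left out (adjusted p from 0.0563 to 0.0755) or once line and column medians were subtracted (adjusted p = 0.0749).

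Olfr64, Olfr65, Olfr66, Olfr67, Olfr68 and Olfr69 flank the beta-globin genes. RefSeq orders them Olfr69, Olfr68, Olfr67, then Hbb-bt, Hbb-bs, Hbb-bh2, Hbb-bh1 and Hbb-y, then Olfr66, Olfr64 and Olfr65. Their ratios were not alike. Next to Olfr64 at -2.03 in brain, Olfr66 had -0.31 and Olfr65 had -0.30, and neither of these passed there. Olfr69, at the other end, passed nowhere, with 0.15 in brain, -0.06 in kidney and -0.26 in liver. Olfr65 passed in liver only, at -0.62 ± 0.29 (SD, n = 3, adjusted p = 0.00316), a call lost once line and column medians of the print order were subtracted (-0.33, adjusted p = 0.0565). The difference between Olfr64 and Olfr65 was not tested, and these genes share the MOR1 family name, so which of them each probe measured is uncertain. Olfr67 gave -0.36, -0.87 and -0.51 in brain, kidney and liver. The brain call of Olfr67 (adjusted p = 0.026) was lost without any 1 of the brain arrays (adjusted p from 0.0602 to 0.109) and when the brain arrays were fitted alone (adjusted p = 0.121).

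Some class I receptors are known from outside the nose. Olfr78 was lower in liver, with -0.29, -0.50 and -0.20 on the 3 arrays (mean -0.33 ± 0.16 (SD, n = 3), adjusted p = 0.0295, and 0.0665 with position medians removed), while in kidney it had -0.22, -0.11 and -0.15 and did not pass (adjusted p = 0.234). Olfr544, a receptor reported to bind azelaic acid, passed nowhere, with means of -0.02, 0.02 and -0.17. These 2 genes and Olfr65, Olfr66 and Olfr69 were singled out after their values were seen.

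Among the 120 probes of class II receptors, 7 were higher and 20 lower in brain, 13 higher and 26 lower in kidney, and 2 higher and 7 lower in liver. Of all probes, 10.4%, 14.5% and 12.8% were higher and 9.87%, 14.5% and 12.4% lower, in the same order of tissues. Median log2 ratios were -0.07, -0.10 and -0.06. Olfr76 had the highest ratios of all receptor probes, at 3.36, 2.76 and 2.90 on the brain arrays. On the kidney arrays it had 0.17, 0.34 and 0.43, and on the liver arrays -0.48, 0.09 and 0.08. The brain values lay far above those of both other tissues with no overlap. Its means were 3.01 ± 0.32 in brain (SD, n = 3, adjusted p = 6.04e-06), 0.31 ± 0.13 in kidney (adjusted p = 0.124) and -0.10 ± 0.32 in liver (adjusted p = 0.637).

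Olfr139 and Olfr402, of the MOR255 family, and Olfr61, of the MOR253 family, followed in brain. Olfr139 read 1.54, 1.51 and 1.10 (mean 1.38 ± 0.24, adjusted p = 6.15e-05), and its kidney and liver arrays lay between -0.32 and 0.24. A separate probe of Olfr139 did not pass in any tissue, with -0.18 ± 0.32 in brain (SD, n = 3), so the probes of this gene did not give the same call. Olfr61 read 1.04, 0.62 and 0.94 in brain (mean 0.87 ± 0.22, adjusted p = 0.00243), and Olfr402 read 0.86, 0.58 and 0.64 (mean 0.69 ± 0.15, adjusted p = 0.000561). Both were singled out after their values were seen. Their kidney and liver arrays ran from -0.30 to 0.40 and did not reach the brain values.

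The 5′ windows of 3 receptors are printed because their probes had the highest olfactory ratio, the highest V2R ratio and the lowest ratio among those with a window. Each runs from 250 bases before to 50 bases after the gene start in RefSeq (GRCm38.p6, minus strand): Olfr76 at chr19:12120625-12120924, Vmn2r10 at chr5:109006387-109006686 and Olfr64 at chr7:103894422-103894721. Capitals mark an ATG at the annotated first base of the gene, base 251, where there is one.
Olfr76: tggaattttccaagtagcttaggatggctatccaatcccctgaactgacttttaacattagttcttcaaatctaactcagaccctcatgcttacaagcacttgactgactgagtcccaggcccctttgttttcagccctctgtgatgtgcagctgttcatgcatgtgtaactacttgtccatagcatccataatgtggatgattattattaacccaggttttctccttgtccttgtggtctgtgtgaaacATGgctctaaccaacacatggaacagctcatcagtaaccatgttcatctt
Vmn2r10: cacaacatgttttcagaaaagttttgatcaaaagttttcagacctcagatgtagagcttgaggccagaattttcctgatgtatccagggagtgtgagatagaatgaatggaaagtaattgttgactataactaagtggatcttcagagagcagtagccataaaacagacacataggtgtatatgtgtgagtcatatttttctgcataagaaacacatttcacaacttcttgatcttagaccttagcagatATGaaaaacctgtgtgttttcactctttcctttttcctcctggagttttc
Olfr64: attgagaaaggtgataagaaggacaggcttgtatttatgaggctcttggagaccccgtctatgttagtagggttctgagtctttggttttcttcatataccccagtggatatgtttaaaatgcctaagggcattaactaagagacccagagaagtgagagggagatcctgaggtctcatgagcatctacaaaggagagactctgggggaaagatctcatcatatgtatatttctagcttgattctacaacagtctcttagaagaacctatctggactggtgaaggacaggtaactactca

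In Olfr76 and Vmn2r10 the annotated gene began at the ATG, and in Olfr64 it did not. Windows were given for 142 of the 178 receptor genes, in 144 windows, and in 85 of them (59%) the gene began with ATG, against 5.83% of 32851 windows of all genes. For those genes the annotation starts at the coding region, and the window need not hold the promoter. The motif CCCNNGGG, the form bound by EBF factors of olfactory neurons, was in 7 of the 144 receptor windows (4.86%) and in 13.7% of all windows. The homeodomain motif TAATTA was in 21 receptor windows (14.6%) and in 5.29% of all windows. These shares were not adjusted for the base composition of the windows, which was not measured here. Whether binding sites are more or less common in the receptor windows was therefore not tested. Both motifs read the same on either strand and cannot overlap each other. The 3 windows printed hold neither motif, which says only that these letters are not in these windows.

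In kidney the highest class II receptors were Olfr13 and Olfr47, both of the MOR261 family, and Olfr18, of MOR145. Olfr13 read 0.86, 0.83 and 1.11 (mean 0.93 ± 0.15, adjusted p = 0.000119), Olfr47 read 0.98, 0.87 and 0.84 (mean 0.89 ± 0.07, adjusted p = 0.0002) and Olfr18 read 0.93, 0.75 and 0.39 (mean 0.69 ± 0.28, adjusted p = 0.003). All 3 were near 0 in liver (0.11, 0.03 and -0.09), and their liver to kidney differences passed (-0.82, -0.86 and -0.78, with adjusted p of 0.00412, 0.00401 and 0.0157). In brain they had 0.18, 0.19 and 0.08 and did not pass.

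The OR37 group (MOR262) is a class II family whose receptors lie in a small patch of the nasal epithelium. Its 7 probes had medians of -0.39 and -0.34 in brain and kidney and 0.01 in liver. In brain 4 were lower and in kidney 4 were lower, while in liver 1 was higher. That probe was Olfr155, with -0.74, -0.50 and -0.60 in brain, -0.75, -0.90 and -0.79 in kidney and 0.21, 0.41 and 0.48 in liver. All 3 liver arrays lay above 0 and all 6 others below it. Its tissue means of -0.61, -0.81 and 0.37 passed with adjusted p of 0.00137, 0.000156 and 0.0148, and the liver call was lost without liver replicate 2 (adjusted p = 0.0721) or liver replicate 3 (adjusted p = 0.102). Of the 7 probes, 5 had numbers that were multiples of 8, a class of probes described further on. The largest family, MOR171 with 19 probes, had a kidney median of -0.25, where 8 were lower and 2 higher. In brain 3 of the 19 were lower and 1 higher, and in liver 0 passed. Beside the counts of both families, 9.87%, 14.5% and 12.4% of all probes were lower in brain, kidney and liver, and 10.4%, 14.5% and 12.8% higher.

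Olfr749, whose probe number is a multiple of 8, was higher in liver at 0.58, 0.59 and 0.12 (mean 0.43 ± 0.27, adjusted p = 0.0141). It lost this call without liver replicate 1 (adjusted p = 0.101) or liver replicate 2 (adjusted p = 0.0941). Olfr714 was lower everywhere, with means of -0.90, -0.91 and -1.16 in brain, kidney and liver, and Olfr77 likewise, with -0.45, -0.44 and -0.27. Olfr56 was lower in brain (-0.36 ± 0.01, adjusted p = 0.0216) and higher in kidney (0.34 ± 0.12, adjusted p = 0.0198), and its brain to kidney difference of -0.70 passed (adjusted p = 0.0202). At the other extreme, Olfr49, Olfr874 and Olfr395 had tissue means between -0.12 and 0.11 and passed nowhere. Olfr150 showed how 1 array can set a mean. It read -2.71 on brain replicate 1 and -0.08 and -0.24 on the other brain arrays, so its mean of -1.01 ± 1.48 (SD, n = 3) did not pass (adjusted p = 0.0918).

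**Figure D2:**
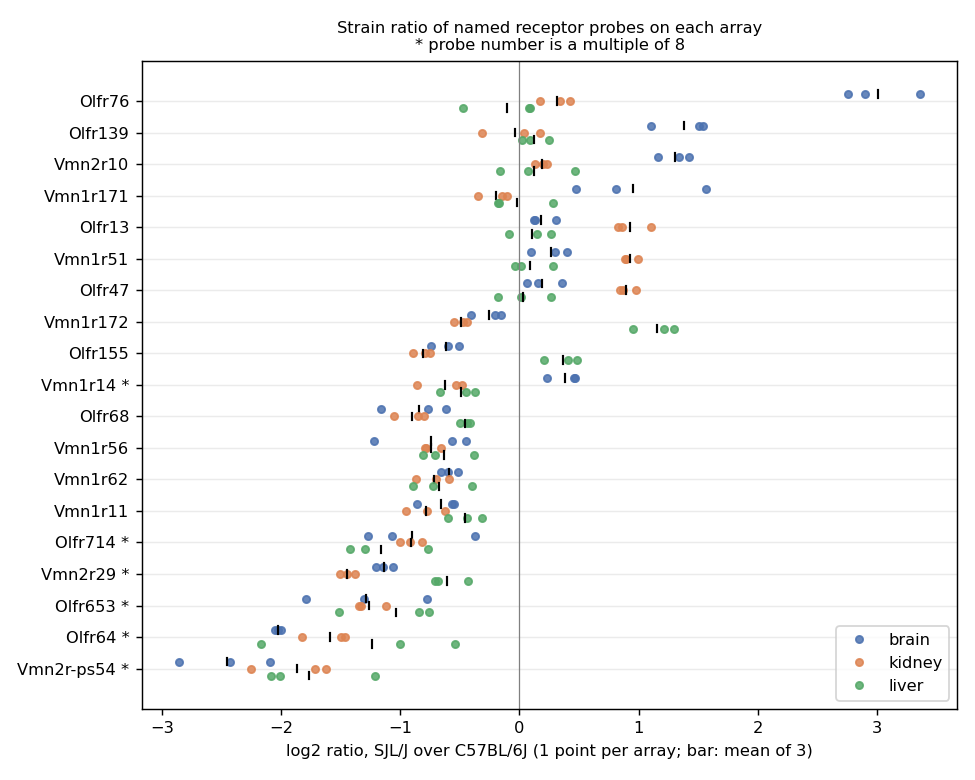
Log2 ratio (SJL/J over C57BL/6J, horizontal axis) of named receptor probes on each of the 9 arrays, 1 point per array with a black bar at the mean of 3, and an asterisk for probes whose number is a multiple of 8. Olfr76 separates brain at 2.76 to 3.36 from the other tissues, Vmn1r172 separates liver at 0.95 to 1.30, and the probes from Olfr68 downward lie below 0 on all 9 arrays. For Olfr139 and Vmn2r-ps54, which have more than 1 probe, only the probe with the larger ratios is drawn.

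The V1R receptors, which detect small pheromones, had the lowest median of the families in kidney. Of 29 probes, 17 were lower and 1 higher in kidney, 10 lower and 2 higher in brain, and 9 lower and 1 higher in liver, with median ratios of -0.43, -0.25 and -0.08. Of all probes, 14.5%, 9.87% and 12.4% were lower and 14.5%, 10.4% and 12.8% higher in kidney, brain and liver. The kidney probes that were lower ran from -0.78 to -0.31. Vmn1r11, Vmn1r40, Vmn1r56 and Vmn1r62 were lower in all 3 tissues. Vmn1r62 read -0.51, -0.66 and -0.60 in brain, -0.59, -0.70 and -0.87 in kidney and -0.40, -0.73 and -0.90 in liver, so the tissues overlapped. Its means were -0.59, -0.72 and -0.67 with SDs of 0.07, 0.14 and 0.25 (n = 3 each) and adjusted p of 0.0043, 0.000883 and 0.00148. The other 3 had means between -0.78 and -0.45 and lay below 0 on 9 of 9 arrays. In liver, Vmn1r56 lost its call without liver replicate 2 (adjusted p = 0.0699) or liver replicate 3 (adjusted p = 0.0633), and Vmn1r11 without liver replicate 2 (adjusted p = 0.0702). The brain call of Vmn1r56 was lost when the brain arrays were fitted alone (adjusted p = 0.0645).

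The kidney shift of the V1R probes was smaller without multiples of 8 and with position medians removed. For each V1R probe the median kidney ratio of the other probes at its position was taken, and the median of these values was -0.17. Away from multiples of 8, the 22 remaining V1R probes had a kidney median of -0.32, with 11 lower and 1 higher. With the median of each position removed from each array, the 29 probes had a kidney median of -0.11, with 7 lower and 1 higher. That median was taken over all probes at a position, receptor probes included. It can therefore take out part of a shift that the receptor probes share.

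V1R receptors that were higher in SJL/J were few. Vmn1r51 had 0.89, 0.89 and 1.0 in kidney (mean 0.93 ± 0.06, adjusted p = 9.71e-05), where its brain arrays lay between 0.10 and 0.40 and its liver arrays between -0.03 and 0.28. Vmn1r171 and Vmn1r172 lie next to each other in RefSeq and went different ways. Vmn1r171 read 0.81, 1.56 and 0.48 in brain (mean 0.95 ± 0.56, adjusted p = 0.00505) and -0.17, 0.28 and -0.18 in liver. The brain call of Vmn1r171 was lost when the brain arrays were fitted alone (adjusted p = 0.0567). Vmn1r172 read -0.41, -0.15 and -0.21 in brain, -0.55, -0.44 and -0.47 in kidney and 0.95, 1.30 and 1.21 in liver. Its liver values lay above all others, and its mean was lower in kidney (-0.49 ± 0.06, adjusted p = 0.00411) and higher in liver (1.15 ± 0.18, adjusted p = 2.69e-05). The difference between these neighbours was not tested. Vmn1r14 was higher in brain (0.46, 0.46 and 0.23) and lower in kidney (-0.86, -0.48 and -0.53) and in liver (-0.45, -0.66 and -0.37). The number of the Vmn1r14 probe is a multiple of 8, and the other probes at its position had a kidney median of -0.51. Both lower calls were lost with position medians removed (-0.09 in kidney, adjusted p = 0.521, and -0.29 in liver, adjusted p = 0.0559) and with line and column medians subtracted (-0.15, adjusted p = 0.309, and -0.22, adjusted p = 0.159), while the brain call was kept at 0.67 and 0.66.

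The V2R receptors, which detect peptide and protein pheromones, gave 1 probe higher and 5 lower in brain, 1 higher and 7 lower in kidney and 0 higher and 2 lower in liver, of 16. Of all probes, 10.4%, 14.5% and 12.8% were higher and 9.87%, 14.5% and 12.4% lower in brain, kidney and liver. Median ratios of the V2R probes were -0.18, -0.24 and -0.03. Vmn2r10, whose 5′ window is printed above, read 1.34, 1.42 and 1.16 in brain (mean 1.31 ± 0.13, adjusted p = 6.65e-05), 0.20, 0.24 and 0.13 in kidney and 0.07, 0.47 and -0.16 in liver. Its brain values stood clear of both other tissues. Vmn2r29 was lower in all 3 tissues, at -1.13 ± 0.07, -1.45 ± 0.06 and -0.61 ± 0.15 (SD, n = 3) in brain, kidney and liver, but its liver call was lost once line and column medians of the print order were subtracted (-0.17, adjusted p = 0.209). Vmn2r122 was higher in kidney at 0.50 ± 0.05 (SD, n = 3, adjusted p = 0.00629) through 1 of its probes.

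The lowest ratios of any receptor came from a probe for the pseudogene Vmn2r-ps54, at -2.43, -2.86 and -2.09 in brain, -1.71, -2.25 and -1.62 in kidney and -1.21, -2.01 and -2.08 in liver. Its means were -2.46 ± 0.38, -1.86 ± 0.34 and -1.77 ± 0.48 (SD, n = 3), with adjusted p of 4.14e-05, 0.000103 and 0.000172. A separate probe for the same gene read -0.21, -0.31 and -0.23 as tissue means and passed in kidney only (adjusted p = 0.0249, and 0.102 with line and column medians subtracted). Both probes were below 0 on all 9 arrays, but their sizes did not match.

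A few other receptor genes had more than 1 probe. Olfr2, the octanal receptor also known as I7, had 3 probes with kidney means of -0.09, 0.47 and 0.11, of which the probe at 0.47 ± 0.19 passed (adjusted p = 0.00615). In Vmn2r89, 1 probe was lower in brain (-0.44 ± 0.10, with adjusted p = 0.0596 when position medians were removed) and kidney (-0.56 ± 0.10), while the other had -0.04 and 0.14 there and did not pass. In Vmn2r122 the second probe had a kidney mean of 0.25 ± 0.39 and did not pass (adjusted p = 0.210). Thus none of the 5 genes with several probes was called in the same tissue by more than 1 of its probes, apart from Vmn2r-ps54 in kidney.

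Among the receptor probes, 35 had a ratio that depended on tissue by limma's moderated F-test (19.0%, against 20.0% of all probes). Pairs of tissues differed in 28 receptor probes for liver against kidney (15.2%, against 18.5%), 12 for liver against brain (6.52%, against 9.25%) and 19 for brain against kidney (10.3%, against 5.27%). The tissue-dependent count of 35 was 18, 22 and 20 without kidney replicates 1, 2 and 3 and 54 without brain replicate 3. The liver to kidney count of 28 was 12 to 16 without any 1 of the 6 arrays of these tissues. The brain to kidney count of 19 was 5 to 8 without kidney replicate 1, 2 or 3 or brain replicate 1 or 2, 12 without liver replicate 3 and 34 without brain replicate 3.

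The smallest p of tissue dependence belonged to Olfr76, whose liver ratio was below its brain ratio by -3.11 (adjusted p = 1.3e-05) and whose brain to kidney difference was 2.69 (adjusted p = 0.00045). Vmn1r172 followed, with a liver to kidney difference of 1.64 (adjusted p = 7.3e-05) and a liver to brain difference of 1.41 (adjusted p = 0.000202). Olfr155 had a liver to kidney difference of 1.18 (adjusted p = 0.00039), Olfr139 a brain to kidney difference of 1.42 (adjusted p = 0.00466), Vmn2r10 a liver to brain difference of -1.18 (adjusted p = 0.00216) and Vmn1r14 a brain to kidney difference of 1.01 (adjusted p = 0.00995). In 4 of these 6 probes, Olfr76, Olfr139, Vmn2r10 and Vmn1r14, brain stood apart as the highest tissue. At the low end the test of tissue dependence mostly did not pass, which does not show that the tissues had equal ratios. For Vmn2r-ps54, Olfr64, Olfr653 and Olfr714 the F-test gave adjusted p of 0.149, 0.203, 0.679 and 0.601, and only Vmn2r29 among the 5 lowest passed it (adjusted p = 0.0047).

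Across the 184 receptor probes, the tissue means correlated at r = 0.54 between brain and kidney, 0.47 between brain and liver and 0.47 between kidney and liver. These are descriptions across probes, which share the arrays, the probe sequence and the dye of each strain. Probes with a single symbol gave 0.53, 0.35 and 0.29. For the 159 receptor probes whose number is not a multiple of 8, r was 0.37, 0.21 and 0.18. Probes with a single symbol at such numbers gave 0.35, 0.25 and 0.17, close to the receptors. Arrays of the same tissue correlated at 0.74 on average over the receptor probes (0.62 to 0.90), and arrays of different tissues at 0.41 (0.24 to 0.56). Over all probes with a single symbol these averages were 0.67 and 0.30.

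**Figure D3:**
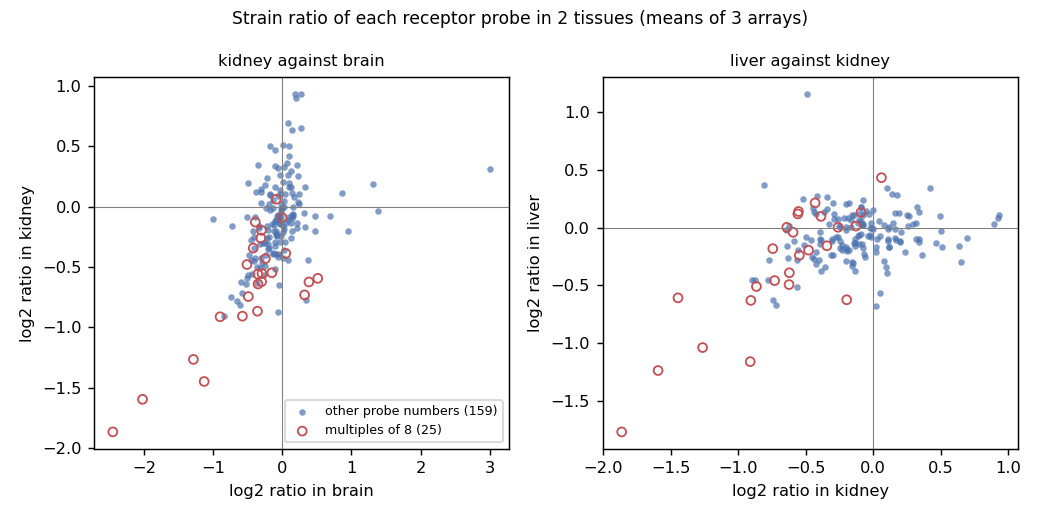
Mean log2 ratio of the 184 receptor probes in kidney against brain (left) and in liver against kidney (right), 3 arrays per mean, with open red circles for the 25 probes whose number is a multiple of 8. The lowest points in both panels are multiples of 8, and Olfr76 lies alone at 3.01 on the brain axis.

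Ratios on these arrays followed the probe number. Probe numbers fall into lines of 24 and 48 blocks of 480, as read from the numbers alone, since the slide layout was not used here. All 2880 probes whose number is a multiple of 8 had median ratios of -0.17, -0.36 and -0.19 in brain, kidney and liver, and 788, 1441 and 867 of them were lower in SJL/J. Of the 184 receptor probes 25 were at such numbers. In that class 11 were lower and 1 higher in brain (lower share 44.0%, against 27.4% of all multiples of 8), 19 lower and 0 higher in kidney (76.0%, against 1441 of 2880) and 10 lower and 1 higher in liver (40.0%, against 30.1%).

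Vmn2r-ps54 (the lower probe), Olfr64, Olfr653, Vmn2r29, Olfr714 and Olfr67 were multiples of 8, which are 6 of the 12 receptor probes lower in every tissue and include the 5 of the 12 with the lowest means over the tissues. With the median of each position over the blocks removed, a setting added after the data were seen, the first 4 kept their calls in all 3 tissues, at -2.30, -1.54 and -1.53 for Vmn2r-ps54 and -1.82, -1.39 and -1.05 for Olfr64. Olfr714 lost its kidney call (-0.28, adjusted p = 0.208), and Olfr67 lost those in brain (-0.16, adjusted p = 0.323) and liver (-0.32, adjusted p = 0.0527). With medians of lines and columns removed instead, 4 of the 12 lost a call. Olfr67 turned to 0.02 in brain (adjusted p = 0.924) and was -0.26 in liver (adjusted p = 0.102). In liver the other calls lost were Vmn2r29 (-0.17, adjusted p = 0.209), Olfr68 (-0.35, adjusted p = 0.0749) and Olfr77 (-0.24, adjusted p = 0.0846). In the added setting 11 receptor probes were lower in every tissue, 10 of them among the 12, and with lines and columns removed there were 14, of which 8 were among the 12.

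Away from multiples of 8, 159 receptor probes remained, with medians of -0.07, -0.11 and -0.08. There 9 were higher and 30 lower in brain (5.66% and 18.9%), 15 higher and 37 lower in kidney (9.43% and 23.3%) and 2 higher and 15 lower in liver (1.26% and 9.43%). For all probes of the same kind, with 1 symbol and at other numbers, 8.30%, 14.7% and 10.6% were higher and 7.26%, 8.77% and 11.4% lower in the order brain, kidney, liver. In brain and kidney the receptors thus had a larger share of lower calls than this background, and in liver a smaller one. The 6 receptors lower in every tissue that remained were Olfr68, Olfr77, Vmn1r11, Vmn1r40, Vmn1r56 and Vmn1r62 (3.77%, against 0.756% of that background). Among these 159 probes 0 were higher in every tissue, against 0.742% of that background.

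Receptor probes were printed in company. They took 37 of the 480 positions within a block, 8 positions held 10 or more of them (85 probes in all), and 128 of the 184 had another receptor probe at an adjacent number. The 1592 other probes at the same positions had medians of -0.01, -0.05 and 0.00, and 11.2%, 19.9% and 11.6% of them were lower in brain, kidney and liver, while 9.36%, 11.6% and 12.4% were higher. Across receptor probes the ratio correlated with the median of the other probes at its position at r = 0.19 in brain, 0.47 in kidney and 0.25 in liver. Away from multiples of 8 r was 0.08, 0.30 and -0.09. The position medians that were removed, unlike these, included the receptor probes. With position medians removed, 12 were higher and 28 lower in brain, 15 and 30 in kidney and 5 and 20 in liver, and the medians were -0.06, -0.06 and -0.05. Of the calls in the deposited values, 35 of 51 in brain, 40 of 71 in kidney and 22 of 28 in liver were made with the same sign after this removal.

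**Figure D4:**
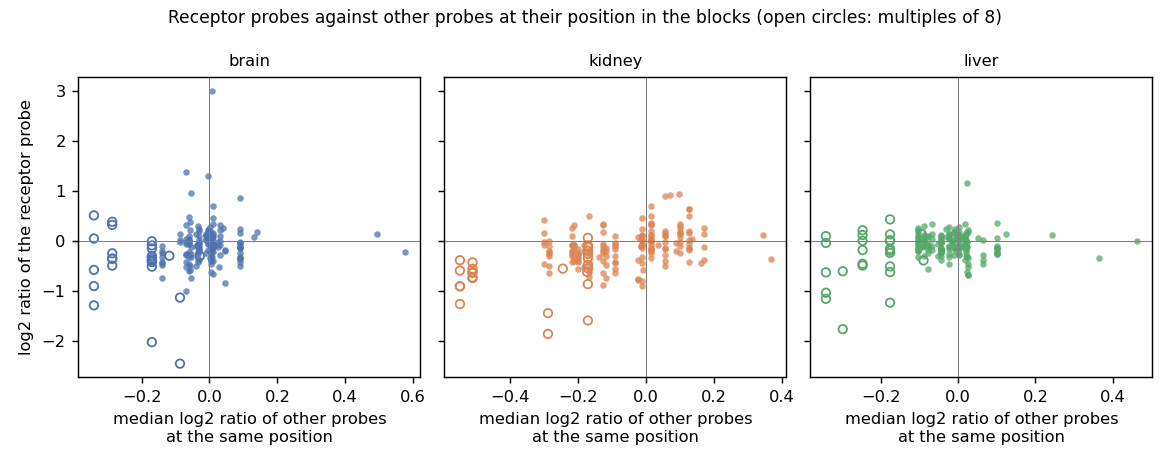
Mean log2 ratio of each receptor probe (vertical axis) against the median ratio of the other probes at the same position in the blocks (horizontal axis, log2), for brain, kidney and liver, with open circles for multiples of 8. Kidney shows the clearest relation (r = 0.47), and the brain probe of Olfr76 at 3.01 sits where the other probes have a median near 0.

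The spread between arrays of the same tissue was no larger for receptor probes than for the array as a whole. For receptor probes the median SD over the 3 arrays was 0.18, 0.12 and 0.15 (brain, kidney, liver), and for all probes it was 0.21, 0.13 and 0.16. In brain the median SD was 0.47 over 76 probes of cytosolic ribosomal proteins, 0.38 over 90 probes of the respiratory chain and ATP synthase and 0.37 over 232 spots of Gapdh, genes known to be expressed in all tissues. The values of the ribosomal and respiratory lists rested on brain replicate 3, where the list medians were 0.66 and 0.29. Without that array, a setting added after the data were seen, the ribosomal list had a median SD of 0.14, the respiratory list 0.14, the receptor probes 0.13 and all probes 0.14. The Gapdh spots had 0.32 without brain replicate 3 and 0.19 without brain replicate 1. Of the 232 Gapdh spots, 231 had numbers that were multiples of 8. All probes at such numbers had a median SD of 0.25 in brain, and all probes at other numbers 0.21. The 30 probes of other chemoreceptors, such as taste receptors, had 0.21, 0.11 and 0.18 in brain, kidney and liver. Signal levels were not used here, so the part of level in these spreads was not tested.

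**Figure D5:**
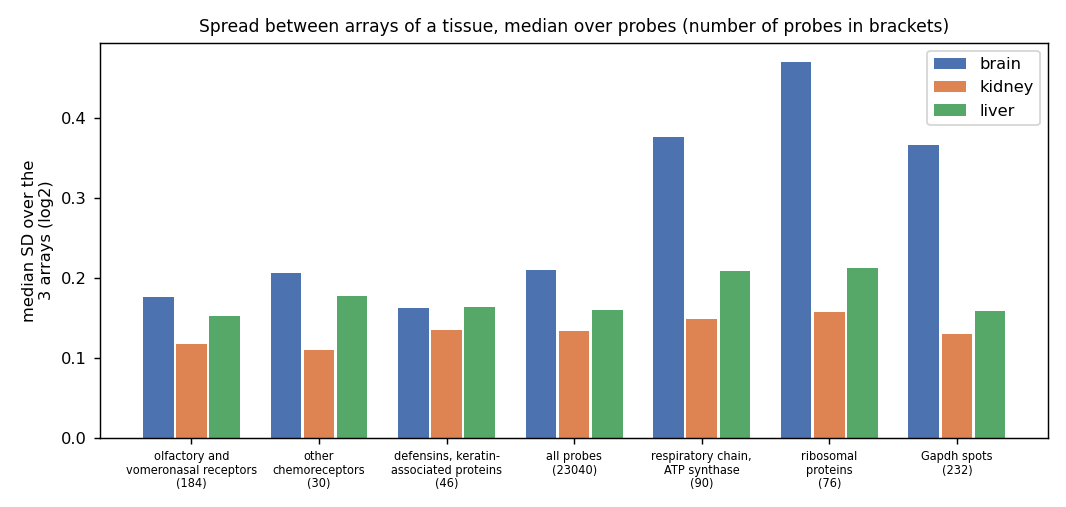
Median over probes of the SD between the 3 arrays of a tissue (log2 units, vertical axis from 0), for receptor probes and comparison lists, with the number of probes in brackets and 1 bar per tissue. Receptor bars reach 0.18, 0.12 and 0.15 for brain, kidney and liver. The ribosomal protein bar in brain reaches 0.47, a value that is 0.14 without brain replicate 3. Of the 232 Gapdh spots, 231 have numbers that are multiples of 8.

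Receptor genes that neighbour each other in RefSeq formed 55 measured pairs. The median absolute gap between neighbours was 0.31 in brain, 0.31 in kidney and 0.25 in liver, against 0.30, 0.34 and 0.21 over all pairs of receptors. The ratio had the same sign in 24, 36 and 28 of the 55 pairs.

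Genes that work with the receptors were read from a list of 39, of which 25 were measured by 28 probes. In brain 1 was higher and 2 lower, in kidney 2 higher and 4 lower, and in liver 2 higher and 1 lower. In the order brain, kidney, liver the share that passed was 10.7%, 21.4% and 10.7% of the 28, below the 20.2%, 29.0% and 25.2% of all probes. Omp, the marker protein of mature olfactory neurons, Cnga2, a subunit of the olfactory channel, and Adcy3, the olfactory adenylyl cyclase, passed in no tissue. Their means lay between -0.30 and 0.20. Gnal, the olfactory G protein subunit, was higher in kidney by 1 of its 2 probes (0.35 ± 0.20, adjusted p = 0.0304), and the other had 0.16 ± 0.23 and did not pass (adjusted p = 0.420). Trpc2 was also higher there by 1 of its 2 probes (0.50 ± 0.28, adjusted p = 0.0199, against 0.09 for the other). The odorant-binding proteins Obp1a and Obp1b were lower in kidney, with -0.59, -0.47 and -1.29 for Obp1a and -0.79, -0.86 and -0.99 for Obp1b. Gnb1, a G protein beta subunit found in many cells, was higher in brain at 1.72, 2.13 and 1.36 (mean 1.74 ± 0.39, adjusted p = 0.000434). The transcription factor Lhx2, needed for olfactory neurons, was lower in kidney (-0.44 ± 0.17) and higher in liver (0.54 ± 0.14), and Emx2 was lower in brain (-1.15 ± 0.74) and liver (-0.81 ± 0.29). Bmp6 was lower in brain and kidney and sits at a multiple of 8, and the cell adhesion gene Kirrel3 was higher in liver by 1 of its 2 probes (0.65 ± 0.28), while the other had 0.15 ± 0.09 (adjusted p = 0.324).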

How the data were processed

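The deposited table held 1 log2 ratio per probe and array (log base by limma's convention), made by the authors with R 2.0.0 and limma, per the submitters' processing notes. How background and dye bias were handled is not given in the sources used here. The sorted values of the 9 arrays were identical and 0 were missing. Samples were grouped by the tissue in their titles. Ratios were fitted with limma 3.58.1 in R 4.3.3 (1 coefficient per tissue, 9 arrays, 6 residual degrees of freedom, eBayes), two-sided, with Benjamini-Hochberg adjustment over all 23040 probes. Differences between tissues and a moderated F-test came from the same fit. The fit was tested on simulated data. Spot intensities were not used here, so dim spots stayed in.

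The members and lists were chosen with earlier results of these data known. Named probes follow a rule: up to 10 lower or higher in every tissue, the 4 highest and 4 lowest called per tissue, the 6 smallest F-test p, genes with several probes, vomeronasal receptors called anywhere, the extreme single values and 3 near 0. Olfr77 and Olfr56 were named outside this rule, after their values were seen, as were the genes marked so above. Of the vomeronasal receptors called anywhere, only some are named above. Of 23040 probes, 6032 had no symbol and 134 several. Replicate numbers did not pair arrays. Alternatives covered arrays left out, array weights, moderation, position medians, probes used, centring, the replicate block and the adjustment.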

Additional observations from a re-analysis of the deposited data

Results flagged for a closer look

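Tissue dependence passed in 35 receptor probes (19.0%, against 20.0% of all probes), and the 6 with the smallest p of the F-test are given here. In each of the 6 a test of the difference between tissues also passed. That test came from the same fit and is no separate support. Olfr76 differed by -3.11 between liver and brain, Vmn2r10 by -1.18 between liver and brain and Olfr139 by 1.42 between brain and kidney, and in all 3 the brain arrays were the high ones. Vmn1r172 differed by 1.64 and Olfr155 by 1.18 between liver and kidney, with the liver arrays high. Vmn1r14 differed by 1.01 between brain and kidney, with brain high. Its probe number is a multiple of 8, and its lower kidney call was lost with position medians removed (-0.09, adjusted p = 0.521). A separate probe of Olfr139 had a brain to kidney difference of -0.27 that did not pass (adjusted p = 0.438).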

How the results depend on the processing

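Each alternative changed 1 choice. With arrays of 1 tissue in each fit, 14 receptor probes passed in brain (main 51). With array weights, 57 depended on tissue (main 35) and 34 differed between brain and kidney (main 19), a count that was 9 without moderation and 9 with the replicate number as a block. The same block fit gave 40, 69 and 24 in brain, kidney and liver; same-numbered arrays had correlations of deviations from -0.09 to 0.05, and the block is no pairing by design. With medians of lines and columns removed, 18 differed between liver and kidney (main 28), the kidney median and SD were -0.11 and 0.34, the liver median was -0.10, and Olfr67 in brain turned to 0.018. Without multiples of 8, 17 passed in liver (main 28) and 6 in all tissues (main 12), the SDs were 0.41, 0.34 and 0.22 in brain, kidney and liver, and the medians -0.11 in kidney and -0.078 in liver. Centring gave a liver median of -0.10. With position medians removed, a setting chosen after seeing the data, 45 passed in kidney (main 71), 11 differed between brain and kidney, the kidney median and SD were -0.059 and 0.35, and the liver median was -0.045. A shared ratio tested on 3 tissue means passed for 9 of the 184 receptor probes, all lower, and for 874 of all 23040 probes.

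With 1 array left out, counts ran from 32 to 46 in brain, 44 to 86 in kidney, 15 to 35 in liver, 8 to 11 in all tissues, 18 to 54 for tissue dependence, 12 to 35 for liver against kidney, 8 to 17 for liver against brain and 5 to 34 for brain against kidney. Medians ran from -0.12 to -0.07, -0.17 to -0.14 and -0.083 to -0.070, and SDs from 0.46 to 0.51, 0.41 to 0.42 and 0.28 to 0.33. The cause was not tested for any of these. No dye exchange and pooled mice limit all ratios, and no signal over background was used here.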
